A study of Mus musculus with 12 samples.

Results

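The comparison described is that of HBG with Model, 8 of the 12 lung RNA libraries of the study, chosen by their group labels with no measured value. Model and HBG each have 4 libraries from male C57BL/6 mice aged 6 to 8 weeks. Both groups received bleomycin, a chemotherapy drug that injures the lung and is used to produce fibrosis in mice, given once into the trachea at 5 mg/kg. HBG animals were also dosed orally with 7 g/kg of Huashibaidu granules, a herbal medicine from China, and Model animals with water. The labels differ on the timing of the granules: in the series text they begin a week ahead of bleomycin and run to day 28, and in the sample labels they begin on day 7 and run for 14 days. The sample labels also speak of doses L, M and G without saying which dose these libraries had. The Control group has 4 libraries of animals given water, and its levels are shown as background. What Control animals received in the trachea, if anything, is not stated. Whether each library is a separate animal is not stated, so the p-values rest on the spread among libraries and that spread may be technical.

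Bleomycin injures the alveolar epithelium and is followed by inflammation and then by the deposition of collagen and other matrix proteins by activated fibroblasts. Collagens are made as precursors that need chaperones and hydroxylases inside the cell, are trimmed by proteases outside it and are linked into fibres by lysyl oxidases. Transforming growth factor beta is the best known inducer of this programme, and macrophages recruited from blood monocytes gather in the injured areas. Interferons induce another programme, of antiviral genes, through STAT and IRF transcription factors.

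Totals ranged from 17979863 to 20752001 estimated counts in HBG and from 19230806 to 22622406 in Model. Levels are CPM, counts scaled to the library total, with edgeR's TMM scaling, and are always given in the order of libraries 1 to 4. The lung label was checked against its markers: the surfactant gene Sftpc ranged from 7740 to 18900 CPM over the 12 libraries and the type I cell gene Ager from 1510 to 2420 CPM. The male label was checked too, with Ddx3y at 68.4 to 90.9 CPM and Xist at 1.04 to 3.26 CPM. In a principal component analysis of the 8 libraries, the first component held 40% of the variance and the second 21.7%, and neither divided HBG from Model. HBG 3 (84.3) and Model 2 (45.6) stood apart on the first component, the 2 of them correlating at 0.978 in log2 CPM. Pairs within HBG correlated at 0.925 to 0.98, pairs within Model at 0.954 to 0.984 and pairs across the groups at 0.936 to 0.982, so libraries of different groups were about as alike as libraries of the same group. HBG 3 and Model 2 had the highest lymphocyte and cell cycle values and the lowest p53-target values of their groups, and results that rest on them are given with and without them. What sets these libraries apart was not tested.

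**Figure D1:**
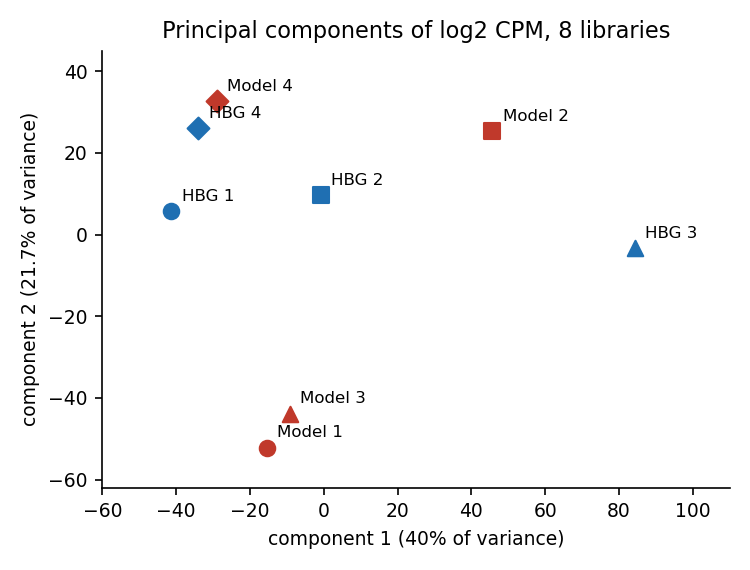
Principal components of log2 CPM over the genes tested, for the 4 HBG (blue) and 4 Model (red) libraries, with component 1 on the x axis (40% of variance) and component 2 on the y axis (21.7%). HBG 3 and Model 2 lie apart on component 1, Model 1 and Model 3 lie apart on component 2, and the groups are not divided by either axis.

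The comparison asks what the granules add to bleomycin, and 17827 genes were tested with edgeR's quasi-likelihood test. No gene passed an adjusted p of 0.05 (0 of 17827, 0%), and the smallest adjusted p was 0.9999. At an unadjusted p under 0.05 there were 433 genes (2.43%), of which 131 were higher (0.735%) and 302 lower (1.69%) in HBG. A flat distribution of p would put 891 genes there, so small p-values were fewer than a flat distribution gives. Fold changes were centred, with 50.1% of genes above 0 and a median log2 fold change of 0.00061. The 4 HBG libraries lay above the 4 Model libraries in 81 genes (0.454%) and below them in 120 (0.673%). The median half-width of a gene's 95% interval was 0.432 on the log2 scale, and for 13678 genes (76.7%) the whole interval lay within 1 log2 unit of no difference. These intervals are per gene and not adjusted for the number of genes. Limma-voom with sample quality weights also called 0 genes, with a smallest adjusted p of 0.1788. It put 2632 genes at an unadjusted p under 0.05, more than the 891 of a flat distribution, so on small p-values it differed from edgeR.

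**Figure D2:**
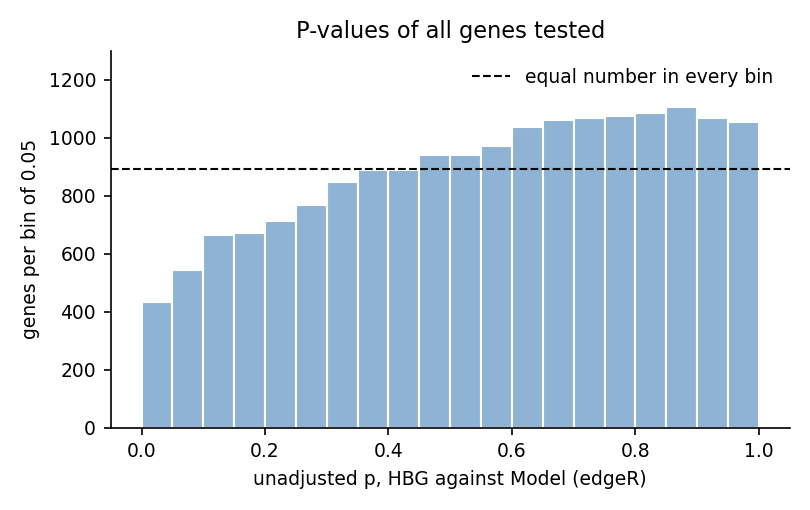
Number of genes (y axis) per bin of unadjusted p (x axis, bins of 0.05) in edgeR's test of HBG against Model. The first bin holds 433 of 17827 genes, below the dashed line at 891 that an even spread would give.

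DESeq2 called 4 genes, chosen here for that call after their values were seen. Fblim1 had an adjusted p of 0.0403 and the histone gene H2ac18 of 0.0157 in DESeq2, and both are described below. Gm5559, a predicted gene, had an adjusted p of 0.00613 in DESeq2, with 0, 2.65, 1.61 and 1.89 CPM in HBG and 0 in every Model library, where 0 allows up to 3 counts. The gene listed only as ENSMUSG00000120425 had an adjusted p of 0.0129 in DESeq2, with 3.78, 2.33, 3.21 and 3.22 CPM in HBG and 6.62, 5.05, 6.52 and 8.22 CPM in Model. The edgeR adjusted p of these 4 genes was 0.9999.

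On the lower side, the genes described here for their small unadjusted p had all 4 HBG libraries below all 4 Model libraries. Fblim1, a filamin-binding adaptor at sites where cells grip the matrix, had 72.1, 59.96, 60.1 and 64.7 CPM in HBG and 91.7, 82.2, 86.8 and 93.7 CPM in Model, a log2 fold change of -0.46 (95% interval -0.68 to -0.25). Cd248, or endosialin, a surface protein of pericytes and fibroblasts, had 10.2, 9.03, 7.94 and 7.32 CPM in HBG and 14.9, 13.5, 11.6 and 13.7 CPM in Model (log2 fold change -0.64, interval -0.96 to -0.32). Both genes were in a narrow band in each group, and the Control libraries, at 58.9 to 74.9 CPM for Fblim1 and 7.3 to 10.1 CPM for Cd248, spanned the HBG levels or lay near them. Dbn1 encodes drebrin, which binds actin filaments. Its values were 14.9, 12.2, 12.1 and 12 CPM in HBG and 31.2, 17.5, 27.9 and 15.6 CPM in Model, with Model 1 and Model 3 well above the other Model libraries and Control at 14.7 to 18.6 CPM. Ndrg1, a gene induced by hypoxia and stress, had 39.4, 45.2, 37.5 and 41 CPM in HBG, 60.02, 51, 50.9 and 53.9 CPM in Model and 34.9 to 45.9 CPM in Control. Its log2 fold change was -0.40 (interval -0.62 to -0.18). Pdap1, a phosphoprotein that binds platelet-derived growth factor A, had 65.5, 60.7, 63 and 62.9 CPM in HBG and 82.6, 74.2, 70.9 and 83.4 CPM in Model. Mfap5 and Loxl2, chosen by the same rule, are matrix genes and follow with their lists. These genes were picked by their p-values, so their separation is a description, and none passed the adjusted test.

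On the higher side the first gene was Rpl13, a protein of the large ribosomal subunit, with 139, 136, 167 and 186 CPM in HBG and 102, 94.1, 121 and 69.8 CPM in Model (log2 fold change 0.70, interval 0.35 to 1.04). All 4 HBG libraries lay above all 4 Model libraries, and all 8 lay below Control, at 361 to 422 CPM. Rpl13 has processed copies in the genome, and how reads were divided among them is not given. Summed with its 6 listed copies it reached 157 ± 24 CPM in HBG, against 97 ± 21.3 in Model and 391 ± 26.7 in Control (± SD, n = 4 each). H2ac18, a histone H2A gene, had 7.79, 3.51, 3.69 and 5.54 CPM in HBG, 1.49, 0.606, 0 and 0.913 CPM in Model and 9.67 to 18.1 CPM in Control. Its near-identical neighbour H2ac19 can share its reads, so this value is uncertain. The pair summed to 11.4 ± 4.73 CPM in HBG, against 7.09 ± 0.354 in Model (± SD, n = 4 each), so the separation seen in H2ac18 alone was far smaller in the sum. Rnaseh2c, a subunit of the enzyme that removes RNA from RNA-DNA hybrids, had 12, 13.7, 13.5 and 17 CPM in HBG and 12.5, 8.68, 9.82 and 8.17 CPM in Model, with HBG 1 below Model 1. As for Rpl13, all 8 lay below Control, here at 22.5 to 25.1 CPM. H2-Q4, a class I histocompatibility gene of a family with close copies, had 219, 292, 242 and 234 CPM in HBG, 168, 201, 162 and 185 CPM in Model and 167 to 244 CPM in Control. Asb13, a subunit that selects targets for ubiquitin ligases, had 28.6, 31.8, 29.9 and 32.3 CPM in HBG and 25.4, 26.9, 25.9 and 22.6 CPM in Model. Mrm1, a methyltransferase of mitochondrial ribosomal RNA, had 7.28, 7.46, 7.09 and 9.43 CPM in HBG and 3.79, 6.82, 5.38 and 5.23 CPM in Model. HBG lay above Model in every library for H2-Q4, Asb13 and Mrm1, by log2 fold changes of 0.47, 0.28 and 0.56. The other 2 of the 8 were Cnp, with a log2 fold change of 0.35 and overlapping groups, and Dennd11, with 0.27 and groups that did not overlap.

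Gene lists of pathways and cell types, 46 in all with 852 genes, were described by how many members were higher or lower in HBG and by their median log2 fold change. Each library also has a score per list, its members' average log2 CPM after subtracting the average over the 12 libraries. No member of any list passed the edgeR test, so the counts below give only the sign of each fold change, against 50.1% higher over all genes. Members of a list were measured in the same libraries and can rise and fall together. Their counts and shares below are therefore not separate observations and were not tested as sets. Medians were above 0 in 20 lists and below 0 in 26. Scores of HBG and Model did not overlap in 1 of the 46 lists. In bulk tissue, fewer cells of a type and less RNA per cell cannot be told apart, which holds for all lists of cell types below.

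Interstitial collagens, the fibre-forming and associated collagens of scar tissue, were lower in HBG in all 14 members, with a median log2 fold change of -0.51 (0.702-fold). Of these, 6 had an unadjusted p under 0.05 (42.9%, against 1.69% of all genes on the lower side). Col1a1, the main chain of type I collagen, had 298, 192, 311 and 174 CPM in HBG and 641, 350.2, 367 and 278 CPM in Model (log2 fold change -0.75, interval -1.31 to -0.19). HBG 1 and HBG 3 lay above the lowest Model library, Model 4, while the other HBG libraries lay below the whole Model group and below Control, at 221 to 273 CPM. Col3a1, type III collagen, had 489, 333, 726 and 309.9 CPM in HBG and 1136, 679, 692 and 426 CPM in Model, and here HBG 3 lay above 3 of the 4 Model libraries. Col5a2, a chain of the type V collagen that sets fibre diameter, had 93.5, 81, 126 and 72.5 CPM in HBG and 256, 116, 166 and 91.9 CPM in Model. Col8a1, a short-chain collagen of vessels and remodelled matrix, had 12.8, 17.6, 11.4 and 15.1 CPM in HBG and 41.7, 12.4, 28.7 and 18.7 CPM in Model. In each of these genes Model 1 was the highest library. Without Model 1 the list's median was -0.30, and without Model 2, HBG 3 and Control 4 together it was -0.71.

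Collagen processing and crosslinking genes were the 1 list of 46 whose scores did not overlap. Scores were -0.17, -0.043, -0.034 and -0.19 in HBG and 0.38, 0.058, 0.24 and 0.014 in Model, with Control at -0.25 to 0.065. The gap was narrow, from -0.034 in HBG 3 to 0.014 in Model 4. This list was singled out after the scores of all 46 were seen, so its separation is a description. Of 25 members 22 were lower in HBG, with a median of -0.23, and 4 had all HBG libraries below all Model libraries (16% of the list, against 0.673% of all genes). Those 4 were Loxl2 and Loxl4, lysyl oxidase-like enzymes that link collagen and elastin, Fkbp10, a collagen chaperone, and Crtap, a partner of prolyl 3-hydroxylase; Loxl4 and Crtap were named after their values were seen. Loxl2 had 48.5, 35.5, 46.5 and 38.8 CPM in HBG and 85.2, 54, 59.4 and 56.7 CPM in Model (log2 fold change -0.59, interval -0.94 to -0.25). Fkbp10 had 26.8, 26.9, 24.1 and 26.4 CPM in HBG and 41.6, 31, 33.4 and 29.6 CPM in Model, and Control spanned 22.6 to 31.1 CPM. Loxl4 had 3.59, 3.84, 3.83 and 3.83 CPM in HBG and 6.08, 5.5, 4.93 and 4.72 CPM in Model. Crtap differed least, with 32.9, 34.4, 30.6 and 34 CPM in HBG and 44.4, 35.1, 39.2 and 34.9 CPM in Model. Lox, the founding lysyl oxidase, had 48.8, 80.3, 74.3 and 50.8 CPM in HBG and 125, 77.1, 92.5 and 78.8 CPM in Model, and HBG 2 lay above Model 2 and Model 4. Adamts2, which trims the end of procollagen, had 43.6, 40.8, 62.1 and 33 CPM in HBG and 102, 69.6, 65 and 48 CPM in Model, with HBG 3 within the Model range. The list's median ran from -0.29 to -0.17 as single libraries were left out and was -0.26 without Model 2, HBG 3 and Control 4.

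Matrix glycoproteins and proteoglycans, the proteins that organise elastic fibres and link cells to the matrix, were lower in HBG in 32 of 34 members, with a median of -0.34. Unadjusted p-values under 0.05 were found for 12 of them (35.3%, against the same 1.69%). Mfap5, a microfibril protein of elastic fibres, had 30.3, 31.8, 37.8 and 27.4 CPM in HBG and 74.9, 41.3, 53 and 39.2 CPM in Model, and every HBG library lay below every Model library. Eln, elastin itself, had 234, 221, 225 and 218 CPM in HBG and 551, 225, 394 and 291 CPM in Model. The HBG libraries were nearly level, HBG 1 and HBG 3 lay just above the lowest Model library, Model 2, and the Model values ran over a far wider range. Vcan, or versican, a large proteoglycan of provisional matrix, had 18.9, 13.7, 13.6 and 11.9 CPM in HBG and 29.7, 18.2, 22.4 and 19.7 CPM in Model. Fn1, fibronectin, had 327, 284, 544 and 177 CPM in HBG, 938, 663, 477 and 263 CPM in Model and 155 to 205 CPM in Control, with HBG 1, 2 and 3 above the lowest Model library. Postn, periostin, did not share this order, with 178, 435, 505 and 358 CPM in HBG and 342, 436, 408 and 438 CPM in Model, and its log2 fold change of -0.14 turned to 0.091 without HBG 1. Without the 3 libraries Model 2, HBG 3 and Control 4 the median of the list was -0.48.

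**Figure D3:**
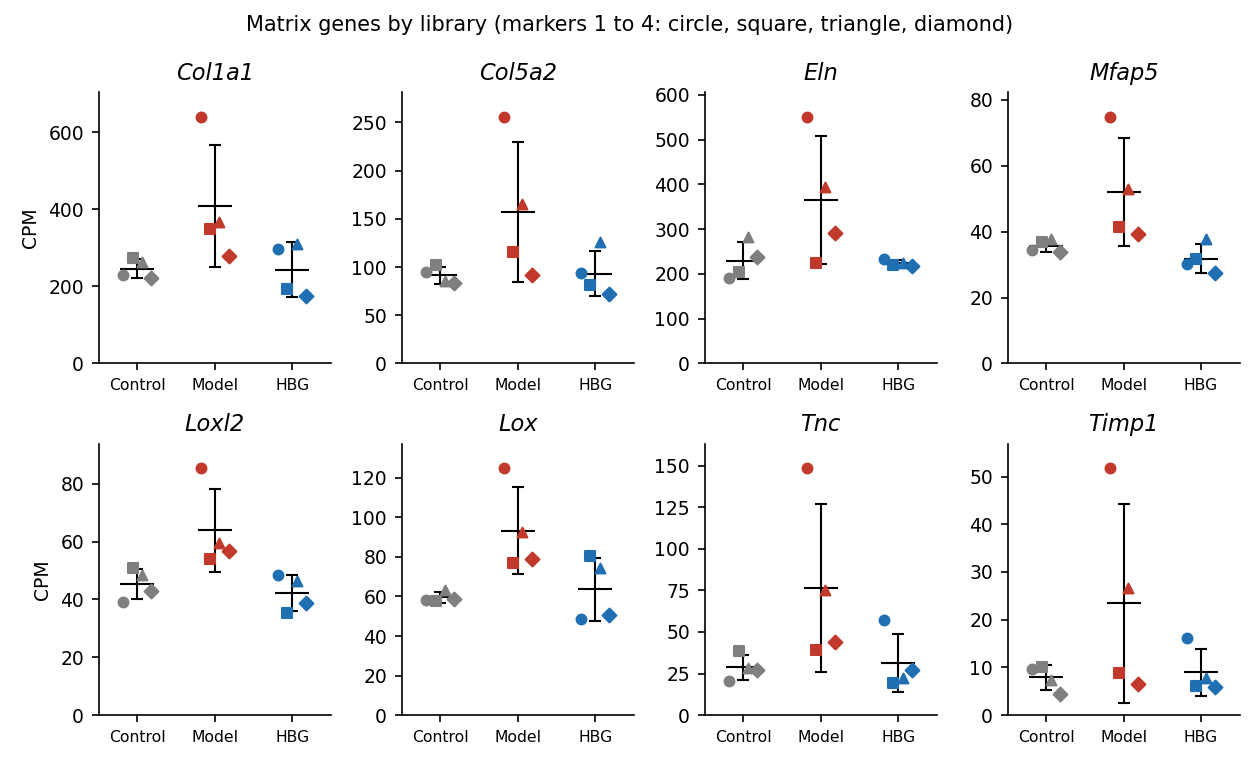
CPM (y axes, from 0) of 8 matrix genes in the 4 Control (grey), 4 Model (red) and 4 HBG (blue) libraries, with the mean and SD of each group as bars and markers that stand for libraries 1 to 4. Model 1 is the highest Model library in each panel, and HBG and Model do not overlap for Mfap5 and Loxl2.

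Basement membrane genes, the sheet-forming collagens and laminins under epithelium and vessels, were lower in HBG in 19 of 21 members, with a smaller median of -0.18. Lamc1, a laminin chain found in most basement membranes, had 186, 210.3, 259.5 and 178 CPM in HBG and 260.3, 282, 249 and 241 CPM in Model. Col4a1, a chain of type IV collagen, had 515, 658, 984 and 520.5 CPM in HBG and 1133, 995, 936 and 652 CPM in Model, and Col4a2, its partner, had 432, 558, 793 and 468 and 859, 791, 802 and 572 CPM. HBG 3 was the highest HBG library in all 3 genes and lay inside the Model range. This median moved with single libraries, from -0.41 without HBG 3 to -0.097 without Model 2, with -0.10 without HBG 4 and -0.30 without Model 4.

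Matrix proteases and their inhibitors were lower in HBG in 22 of 24 members, with a median of -0.34. Mmp2, a gelatinase made by fibroblasts, had 176, 159.5, 139.8 and 122 CPM in HBG and 371, 168, 245 and 162 CPM in Model. Adamts4, a protease of versican and aggrecan, was scarce, with 1.17, 0.757, 1.75 and 0.832 CPM in HBG and 3.84, 2.22, 2.04 and 0.913 CPM in Model. Timp1, the metalloprotease inhibitor most used as a marker of fibrosis, had 16.2, 6.16, 7.7 and 5.82 CPM in HBG and 51.7, 8.73, 26.6 and 6.55 CPM in Model, a log2 fold change of -1.38 with an interval of -2.67 to -0.083. Model 1 and Model 3 carried the high Timp1 values, and Model 2 and Model 4 lay within the HBG range. The list's median was -0.21 without Model 1 and -0.59 without HBG 3.

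Over these 5 matrix lists the scores of the Model libraries followed the same pattern, with Model 1 highest and Model 4 lowest in each. For the collagens they were 0.85, 0.32, 0.34 and -0.10 in Model and -0.026, -0.31, 0.30 and -0.48 in HBG, against -0.30 to -0.12 in Control. For the glycoproteins they were 0.63, 0.34, 0.23 and -0.017 in Model and -0.18, -0.17, 0.17 and -0.33 in HBG, against -0.28 to -0.084 in Control. Model 4 and the HBG libraries other than HBG 3 were near the Control range in both. HBG 4 was the lowest HBG library in all 5 lists.

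**Figure D4:**
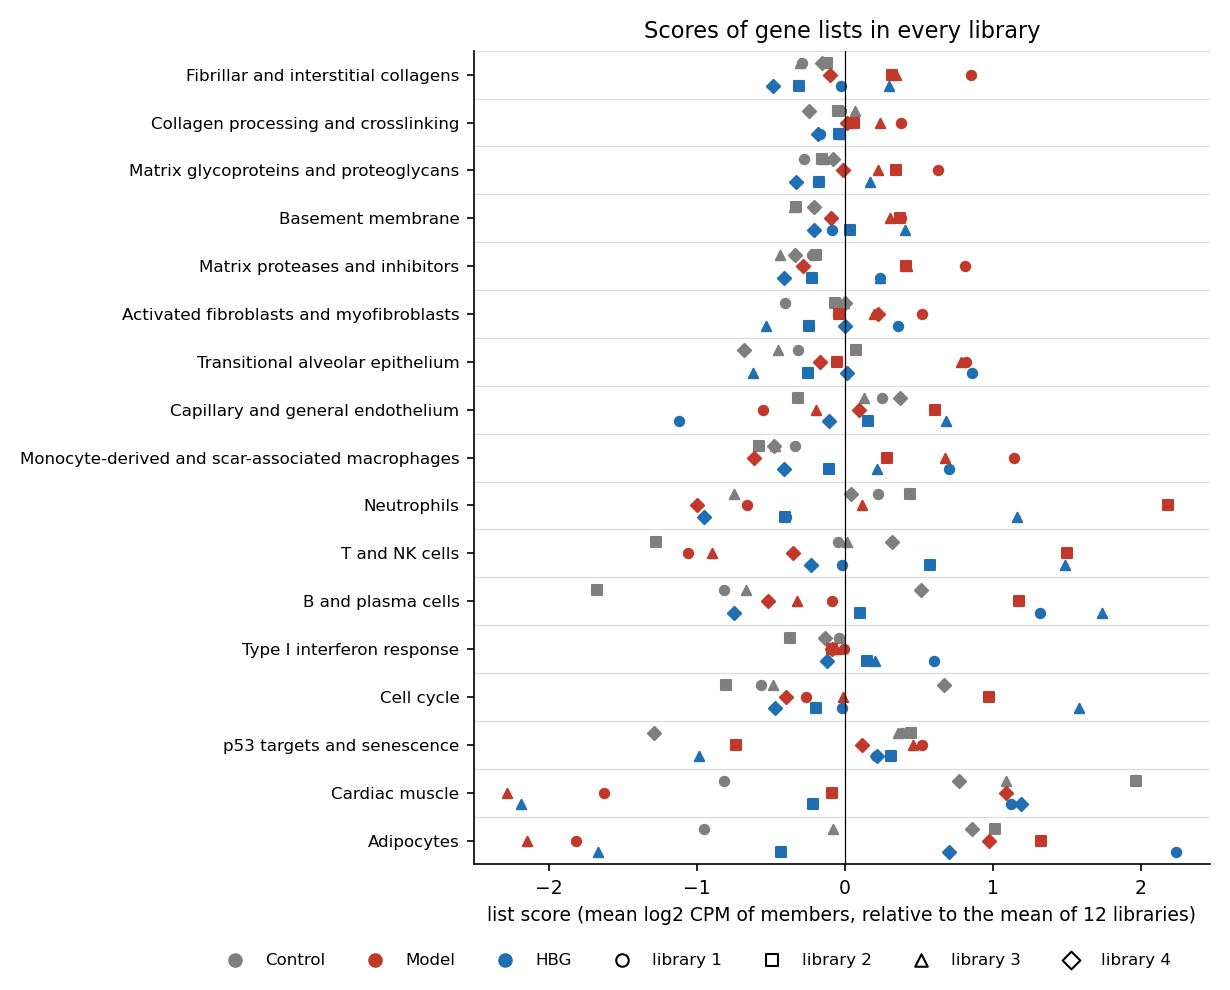
Scores of 17 gene lists (x axis, mean log2 CPM of members relative to the mean of 12 libraries) in every Control (grey), Model (red) and HBG (blue) library, with marker shapes for libraries 1 to 4. HBG and Model do not overlap for collagen processing and crosslinking and overlap in the other 16 rows, and HBG 3 and Model 2 lie together at the right for T and NK cells and for the cell cycle.

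Of 24 genes of the transforming growth factor beta pathway 19 were lower in HBG, with a median of -0.12 (-0.21 without HBG 3). Tgfb1, the main ligand, had 40.8, 51.5, 75.3 and 36.4 CPM in HBG and 61.6, 76.1, 54.9 and 53.6 CPM in Model, with HBG 3 close to the highest Model library. Tgfb2 had 54.5, 36.7, 38.8 and 42.8 CPM in HBG and 75.8, 47.4, 73.3 and 46.7 CPM in Model, and only HBG 1 lay above the lowest Model library. Ltbp1, which stores the latent ligand in the matrix, had 86.6, 105, 95.7 and 94.4 CPM in HBG and 113, 104, 106 and 120.3 CPM in Model. Activated fibroblast and myofibroblast genes were lower in HBG in 17 of 19 members, with a median of -0.18 (-0.35 without HBG 1, -0.10 without Model 4). Tnc, tenascin C, had 57.3, 19.4, 22.4 and 27.3 CPM in HBG and 148, 39, 75.1 and 43.8 CPM in Model. Fst, follistatin, an inhibitor of activins, had 3.87, 3.46, 3.59 and 4.27 CPM in HBG and 12.8, 3.69, 6.65 and 3.6 CPM in Model. In both genes Model 1 and Model 3 were the highest of the 8 libraries. Acta2, smooth muscle actin, spread widely in both groups, with 778, 376, 237 and 552 CPM in HBG and 481, 416, 408 and 953 CPM in Model, and Cthrc1, a marker of scar-forming fibroblasts, had 3.83, 2.97, 3.5 and 4.49 and 10.6, 3.03, 5.2 and 2.74 CPM. Genes of resting alveolar fibroblasts were divided, with 7 of 15 higher and a median of -0.011.

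Alveolar epithelium showed small differences. Type II cells make surfactant, and 14 of their 15 genes were lower in HBG with a median of -0.13, which was 0.008 without Model 1. Sftpc had 7736, 13970, 12860 and 15500 CPM in HBG and 17550, 13830, 14120 and 13360 CPM in Model, so that HBG 1 was far below the other libraries and the rest overlapped. Scd1, a desaturase of fatty acids, had 2318, 1725, 1971 and 1750 CPM in HBG and 3629, 2175, 2565 and 1598 CPM in Model. Type I cells form the gas exchange surface, and 11 of 13 of their genes were lower with a median of -0.13 (-0.042 without Model 3). Cldn18, the lung claudin of tight junctions, had 656, 666, 704 and 602 CPM in HBG and 1102, 657, 1079 and 634 CPM in Model, where Model 1 and Model 3 stood above the other 6 libraries. The transitional state that type II cells pass through after injury had 14 of 15 genes lower and a median of -0.23, which ran from -0.49 to -0.031 as single libraries were left out. Ndnf, a secreted protein of that list, had 388, 214, 326 and 196 CPM in HBG and 554, 349, 638 and 139.5 CPM in Model. Krt8, the keratin most used to mark the state, had 619.8, 249.6, 147 and 434 CPM in HBG and 401, 290.1, 366 and 341 CPM in Model, with the highest and the lowest of the 8 libraries both in HBG. Club and secretory genes of the airways were higher in 12 of 15, with a median of 0.26 that ran from 0.058 to 0.52 as single libraries were left out. Their most abundant product, Scgb1a1, had 17560, 32870, 18940 and 47760 CPM in HBG and 30150, 16280, 31920 and 27560 CPM in Model, with wide overlap.

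Endothelium gave no common direction. Capillary and general endothelial genes were higher in 10 and lower in 10 of 20, with a median of 0.012. Their scores were -1.12, 0.16, 0.68 and -0.10 in HBG and -0.56, 0.61, -0.20 and 0.097 in Model, with HBG 1 the lowest and HBG 3 the highest. Pecam1, the pan-endothelial adhesion molecule, had 269, 671, 969.7 and 557 CPM in HBG and 452, 1043, 477 and 776 CPM in Model. Genes of venous and inflamed endothelium had 8 of 14 lower and a median of -0.065. Selp, the selectin that catches leukocytes, had 7.37, 4.76, 6.95 and 6.54 CPM in HBG, 10.1, 8.94, 6.79 and 7.87 CPM in Model and 3.5 to 4.2 CPM in Control, with HBG 1 and HBG 3 above the lowest Model library.

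Macrophage lists pointed in different directions. Monocyte-derived and scar-associated macrophage genes were lower in HBG in 19 of 25, with a median of -0.33. That median was 0.041 without Model 1, so its sign rested on that library. It was -0.56 without HBG 1, -0.20 without HBG 4 and -0.53 without Model 4. Spp1, osteopontin, the hallmark of these cells in fibrosis, had 688, 246, 106 and 120.3 CPM in HBG, 1655, 255, 906 and 108 CPM in Model and 43.9 to 146 CPM in Control. Its high values were in Model 1, Model 3 and HBG 1, and the other 5 libraries lay between 106 and 255 CPM. Lgmn, a lysosomal protease, had 189, 128, 163 and 119 CPM in HBG and 279, 168, 233 and 129 CPM in Model. Resident alveolar macrophage genes were higher in 10 of 16, with a median of 0.16 that was -0.48 without HBG 3. Atp6v0d2, a proton pump subunit of that list, had 31, 25.2, 60.2 and 18.6 CPM in HBG and 106, 38.8, 72.6 and 16.4 CPM in Model, opposite in sign to the list's median. Ctsk, a collagen-degrading cathepsin of the same list, had 76.6, 35.2, 37.5 and 31.7 CPM in HBG and 159.6, 28.2, 103 and 30.7 CPM in Model, with Model 1, Model 3 and HBG 1 highest. Krt79, a keratin and the gene of smallest p in the list, went the other way, with 1.03, 6.33, 19.2 and 7.26 CPM in HBG and 2.24, 6.26, 1.54 and 5.48 CPM in Model, and HBG 1 alone lay below the highest Model library.

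Inflammatory cytokines and chemokines were lower in 22 of 34, with a median of -0.18 (-0.43 to -0.033 as single libraries were left out). Il1b, a first-line cytokine of macrophages and neutrophils, had 10.7, 10.8, 24.9 and 6.16 CPM in HBG and 11.6, 52.2, 16.3 and 5.33 CPM in Model, with the single high value in Model 2. Il6 and Tnf were scarce in every library of the comparison, at 0.61 to 1.35 and 0.222 to 1.07 CPM in HBG and 0.254 to 2.24 and 0.362 to 0.959 CPM in Model. Ccl7, a chemokine that attracts monocytes, had 2.42, 0.487, 0.472 and 0.388 CPM in HBG and 5.66, 1.31, 2.26 and 0.304 CPM in Model, again with Model 1 highest. Neutrophil genes were lower in 10 of 12, with a median of -0.74 that was 0.66 without Model 2 and -1.7 without HBG 3. Csf3r, the receptor for the growth factor of neutrophils, had 18.1, 23.7, 56.5 and 12.3 CPM in HBG and 13.1, 156, 36.3 and 18.1 CPM in Model, with Model 2 by far the highest. Ltf, 1 of the 2 members that were higher, had a log2 fold change of 1.85, with 1992 CPM in HBG 1, and is described below.

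Lymphocyte lists were mostly on the higher side in HBG. T and natural killer cell genes were higher in 25 of 26, with a median of 0.39, and B and plasma cell genes in 19 of 21, with a median of 0.56. Scores of T and natural killer cells were -0.022, 0.57, 1.49 and -0.23 in HBG and -1.06, 1.5, -0.90 and -0.35 in Model, with HBG 3 and Model 2 together at the top. The median was 0.001 without HBG 3, 1.49 without Model 2 and 0.97 with both and Control 4 left out. For the B and plasma cell list the median was -0.067 without HBG 3 and 0.70 with the 3 libraries left out. Ccl5, a chemokine of T and natural killer cells, had 14.7, 28.9, 44.9 and 17.1 CPM in HBG and 5.87, 43.4, 5.84 and 10.1 CPM in Model. Tbx21, the transcription factor T-bet of type 1 lymphocytes, had 1.77, 2.7, 6.001 and 1.55 CPM in HBG and 0.48, 2.12, 0.905 and 1.37 CPM in Model. In both genes Model 1 and Model 3 were the lowest of the 8 libraries. Mzb1, a chaperone of plasma cells, had 17.1, 5.95, 8.74 and 4.16 CPM in HBG and 5.33, 4.7, 4.89 and 3.25 CPM in Model. Thymus and lymph node tissue genes were higher in 6 of 7, with a median of 0.41 and scores of 0.92, -0.039, 1.44 and -0.56 in HBG and -0.10, 0.97, -0.46 and -0.34 in Model, highest in HBG 3, Model 2 and HBG 1. The part of carried-along lymphoid tissue in the lymphocyte values was not tested. Ighg1, an antibody constant region gene, had 219, 14, 3.64 and 0.943 CPM in HBG and 7.47, 1.56, 9.64 and 0.913 CPM in Model, and its log2 fold change of 3.6 rested on HBG 1.

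Interferon-induced genes were higher in HBG as a list. All 39 genes of the type I response were above 0, with a median of 0.30 (1.23-fold), and 3 had all HBG libraries above all Model libraries (7.69% of the list, against 0.454% of all genes). Those 3 were Irf7, Cmpk2 and Ifit3b, the last named after its values were seen. Irf7, the transcription factor that amplifies the interferon response, had 108, 55.7, 54.1 and 48.2 CPM in HBG and 33.5, 46, 37 and 47.5 CPM in Model (log2 fold change 0.70, interval 0.20 to 1.2). HBG 1 was far above the rest, and HBG 4 lay less than 1 CPM above Model 4. Cmpk2, a mitochondrial nucleotide kinase induced by interferon, had 34.3, 37.1, 33.9 and 29.7 CPM in HBG and 23.8, 22.7, 28.1 and 29.2 CPM in Model. Ifit3b, a cytoplasmic antiviral protein, had 38.4, 33.2, 27.8 and 28.4 CPM in HBG and 27.3, 16.3, 26.7 and 24.2 CPM in Model. It has a close copy, Ifit3, so its reads can be shared. The groups also nearly met for Cmpk2 (29.7 CPM in HBG 4, 29.2 in Model 4) and for Ifit3b (27.8 CPM in HBG 3, 27.3 in Model 1). Control spanned 24 to 35.6 CPM for Cmpk2 and 26 to 32.7 CPM for Ifit3b, overlapping the HBG values of both. For Irf7 Control lay below HBG, at 28.8 to 35.6 CPM. Ifi27l2a had 108, 89.8, 63.6 and 92.3 CPM in HBG, 70.2, 49.7, 49 and 54.6 CPM in Model and 59.1 to 117 CPM in Control, and only HBG 3 lay below the highest Model library. Isg15, a ubiquitin-like modifier, overlapped widely, with 42, 23.3, 17.3 and 15.2 CPM in HBG and 22.7, 13.2, 22.7 and 12.9 CPM in Model. The list's scores were 0.60, 0.15, 0.20 and -0.12 in HBG and -0.005, -0.085, -0.059 and -0.089 in Model, so that HBG 4 lay below the Model group, and the median was 0.15 without HBG 1 and 0.30 without Model 2, HBG 3 and Control 4. HBG 1 was also the library with the most Ighg1, Ltf and adipocyte RNA, and the part of these in its interferon values was not tested.

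**Figure D5:**
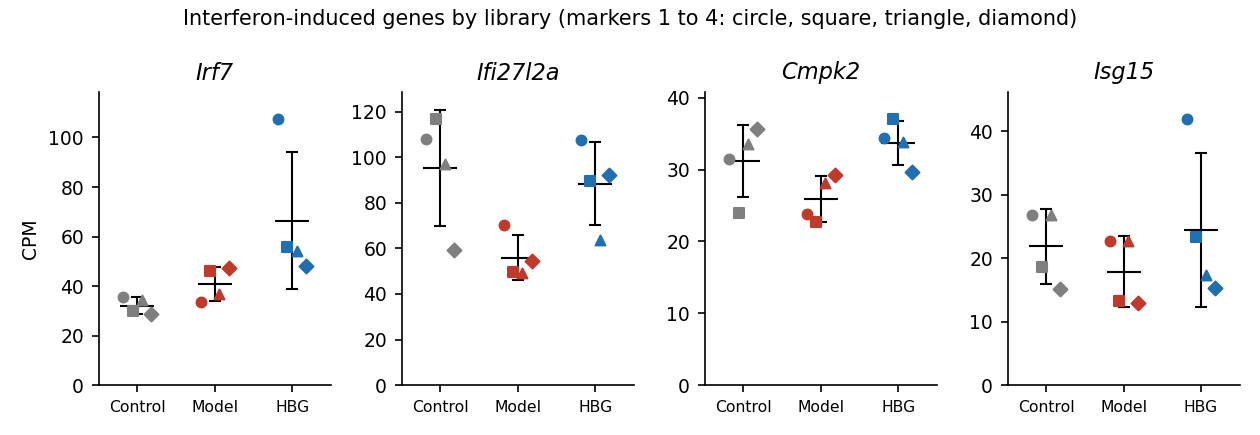
CPM (y axes, from 0) of Irf7, Ifi27l2a, Cmpk2 and Isg15 in the Control (grey), Model (red) and HBG (blue) libraries, with the mean and SD of each group as bars. All HBG libraries are above all Model libraries for Irf7 and Cmpk2, HBG 1 is highest for Irf7 and Isg15, and the groups overlap for Ifi27l2a and Isg15.

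Because members of this list were higher together, their promoters were read for the core of the interferon-stimulated response element, searched as GAAANNGAA on both strands. The windows run from 250 bases before to 50 bases after the gene start and come from RefSeq on build GRCm38.p6. They were found for 28 of the 39 genes, with 34 windows. The letters were present in 19 of the 34 windows (55.9%), against 7.48% of 15997 windows of all genes tested. The list was made of genes known to be induced by interferon. This share therefore describes the list, does not depend on the HBG and Model values and says nothing on what differed between them. Overlapping matches are counted separately. For the interferon-gamma list 12 of 21 windows held them (57.1%), and for the collagens 0 of 11. The windows of Isg15, of its classical companion Ifit1 and of Irf7 follow, 5′ to 3′ on the strand of the gene, with matches in capitals, to show a run of overlapping matches, a pair of separate stretches and a window without one.
Isg15, chr4:156200769-156201068, minus strand: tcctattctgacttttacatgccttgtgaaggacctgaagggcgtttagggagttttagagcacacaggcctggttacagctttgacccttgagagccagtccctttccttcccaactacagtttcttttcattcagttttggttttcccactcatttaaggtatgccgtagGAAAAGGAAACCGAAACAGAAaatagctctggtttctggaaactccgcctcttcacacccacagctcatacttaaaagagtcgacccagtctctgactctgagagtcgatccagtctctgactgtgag
Ifit1, chr19:34640639-34640938, plus strand: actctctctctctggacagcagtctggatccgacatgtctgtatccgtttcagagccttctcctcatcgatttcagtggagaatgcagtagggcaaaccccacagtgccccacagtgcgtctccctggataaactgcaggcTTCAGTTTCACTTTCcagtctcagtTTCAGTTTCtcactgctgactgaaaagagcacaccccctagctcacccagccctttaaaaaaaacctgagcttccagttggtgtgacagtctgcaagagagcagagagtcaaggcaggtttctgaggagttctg
Irf7, chr7:141266375-141266674, minus strand: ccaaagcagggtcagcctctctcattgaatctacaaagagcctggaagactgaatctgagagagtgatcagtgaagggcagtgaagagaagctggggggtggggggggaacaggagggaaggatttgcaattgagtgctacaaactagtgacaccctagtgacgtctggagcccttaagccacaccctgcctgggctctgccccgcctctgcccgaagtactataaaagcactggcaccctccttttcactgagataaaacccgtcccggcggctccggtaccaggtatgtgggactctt

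The window of Isg15 held 3 matches in a row and that of Ifit1 3 matches in 2 stretches, while that of Irf7 held 0. Ifit1, printed for its window and chosen after its values were seen, had 70.8, 44.9, 36.1 and 34.5 CPM in HBG and 36.5, 27.2, 44.7 and 34.2 CPM in Model, a log2 fold change of 0.39. So the gene with the largest named difference of the 3, Irf7, had no match in this window. A match is only a stretch of letters and was not tested for binding.

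Genes of the interferon-gamma response, which act in antigen presentation and cell-autonomous defence, were higher in 26 of 28, with a median of 0.30 (0.11 without HBG 3). Tgtp2, an interferon-induced GTPase, had 69.7, 54.1, 74.3 and 43.4 CPM in HBG and 33.7, 53.8, 33 and 40.4 CPM in Model. Igtp, a related GTPase, had 35.7, 39.7, 52.2 and 27.1 CPM in HBG and 25, 33.1, 27.5 and 26.4 CPM in Model. Tap1, the peptide transporter of antigen presentation, had 87.1, 86.9, 89 and 69.9 CPM in HBG and 69.8, 77.5, 66.1 and 59.6 CPM in Model. In these 3 genes HBG 4 lay within the Model range. In all 3 the other HBG libraries lay above the whole Model group, for Tgtp2 narrowly in HBG 2 (54.1 CPM against 53.8 in Model 2). Class II presentation genes were higher in 7 of 11, with a median of 0.11, and their scores followed the libraries with the most lymphocyte RNA, with HBG 3 at 1.49 and Model 2 at 1.13.

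Lists of stress and of drug metabolism had small medians. Endoplasmic reticulum stress genes were lower in 20 of 21, with a median of -0.15 (-0.25 to -0.081 as single libraries were left out). Calr, a chaperone of glycoproteins, had 579.5, 464, 502 and 508 CPM in HBG and 714, 503, 637 and 684 CPM in Model. Hsp90b1, which encodes GRP94, had 846, 775, 694 and 816 CPM in HBG and 1043, 702, 1061 and 1062 CPM in Model. Model 2 was the lowest Model library in both. The antioxidant NRF2 and glutathione list had 15 of 25 lower and a median of -0.023, and Hmox1, heme oxygenase, had 60.3, 42.8, 51.5 and 48.1 CPM in HBG and 83.4, 57, 63 and 40.9 CPM in Model. Xenobiotic metabolism genes, which include targets of the aryl hydrocarbon receptor, were higher in 17 of 23, with a median of 0.095. Aox3, an aldehyde oxidase, had 102, 160.0, 156 and 192 CPM in HBG and 126, 132, 130.4 and 139 CPM in Model, with HBG 1 below the Model group and the other 3 above it. Glucocorticoid and fasting genes were lower in 17 of 20 with a median of -0.21 (0.069 without the 3 libraries). Fkbp5, a standard glucocorticoid target, had 29.4, 44.3, 24.2 and 45.6 CPM in HBG and 37, 36.9, 43.8 and 60.4 CPM in Model. Circadian clock genes were divided, with 10 of 19 higher and a median of 0.018.

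Genes of the p53 response and senescence were lower in 18 of 20, but with a median of only -0.064 (-0.35 to 0.088 as single libraries were left out). Cdkn1a, the cell cycle inhibitor p21, had 477, 568, 73.5 and 520.0 CPM in HBG and 751, 174, 681 and 566 CPM in Model. The low values belonged to HBG 3 and Model 2, and Control ran from 55.4 to 615 CPM, so a library of this kind was present in each group. Cell cycle genes were higher in 30 of 32, with a median of 0.26 that was -0.33 without HBG 3, 0.74 without Model 2 and -0.005 with both and Control 4 left out. Rrm2, the subunit of ribonucleotide reductase made in S phase, had 3.17, 4.05, 14.3 and 3.1 CPM in HBG and 2.4, 7.12, 3.08 and 2.99 CPM in Model, with the same 2 libraries highest.

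Nuclear genes of oxidative phosphorylation were higher in 18 of 22, with a median of 0.12, whereas 11 of 13 mitochondrially encoded genes were lower, with a median of -0.35. As single libraries were left out the nuclear median ran from 0.029 to 0.22 (lowest without HBG 4, Model 2 or HBG 1, highest without HBG 3) and the mitochondrial median from -0.53 to -0.19 (nearest 0 without Model 4 or HBG 3). Cox5b, a nuclear subunit of cytochrome oxidase, had 59.4, 39.3, 31.5 and 53.2 CPM in HBG, 41.5, 28.7, 38.8 and 35 CPM in Model and 70.2 to 115 CPM in Control. The mitochondrial transcript mt-Nd5, a subunit of complex I, had 3756, 2858, 2203 and 3788 CPM in HBG and 3588, 2834, 4683 and 5609 CPM in Model, with HBG 3 lowest of all. Ribosomal protein genes were higher in 21 of 30, with a median of 0.092 (-0.011 without Model 4). Rpl10 had 164, 259.8, 258 and 274 CPM in HBG and 194, 146, 205 and 120.0 CPM in Model, with the lowest values in Model 4 and Model 2. Values of these lists may also vary with RNA quality, whose part in these and the other differences was not tested.

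Genes of tissues that can be carried along with the lung spread widely over the libraries of both groups. Cardiac muscle genes, which the muscle sleeves of mouse lung veins also express, were higher in all 20, with a median of 0.61. Scores were 1.12, -0.22, -2.19 and 1.19 in HBG and -1.63, -0.085, -2.28 and 1.09 in Model, so the groups covered the same range, and the median was 1.58 without Model 4 and 0.28 without Model 3. Myl4, an atrial light chain of myosin, had 300.2, 109, 29.8 and 336 CPM in HBG, 40.3, 96.8, 25.2 and 227 CPM in Model and 79 to 504 CPM in Control. Adipocyte genes were higher in 11 of 12, with a median of 0.41 that was -0.49 without HBG 1. Fabp4, the fatty acid binding protein of fat cells, had 204, 22, 9.88 and 58.7 CPM in HBG and 22.2, 74.7, 12 and 64 CPM in Model. Ltf, lactoferrin of airway glands and neutrophil granules, had 1992, 78.2, 53.3 and 328 CPM in HBG and 57.2, 319.6, 52.7 and 251 CPM in Model. HBG 1 held the highest value of both genes by far. Erythroid genes had a median of -0.080, with 7 of 11 lower, and that median ran from -0.84 to 0.99 as single libraries were left out (lowest without HBG 3, highest without Model 2).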

How the data were processed

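Polyadenylated lung RNA of 12 libraries was sequenced as paired reads of 150 bases, per the labels' protocols. The authors deposited a single table of estimated counts per gene, a unit read from the values, since 10% to 15.1% of a library's values were not whole. Per the submitters' processing notes, STAR 2.7.9a, HISAT2, featureCounts 2.0.1, HTSeq, Trimmomatic 0.39 and DESeq2 1.34.0 were named, with builds GRCm39 and mm10. Which of them made the counts was not given in sources used here.

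Counts were rounded. Of 56980 genes, 22654 had 0 in every library and 17827 passed filterByExpr. edgeR 4.0.16 (limma 3.58.1, R 4.3.3) fitted the quasi-likelihood model with TMM scaling to the 12 libraries, with group as the only term. Control entered to share the estimate of spread. P-values are two-sided and Benjamini-Hochberg adjusted over all genes tested, with a threshold of 0.05. A count of 0 allows up to 3 counts, and such limits cover counting error only. Intervals come from the fitted log2 fold change and its standard error at a level of 95%. List scores use log2 CPM with a prior count of 2. The script was also run on simulated counts, drawn separately for each gene and without shifts shared by the genes of a library. That run therefore does not show how many true differences would be found in these libraries. No pair of libraries agreed within sampling noise.

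The comparison and the 46 gene lists were chosen with earlier results of these data known. Named genes are 20 key genes, the 8 of smallest p in each direction with at least 1 CPM in either group, and the 3 of smallest p in each of 36 lists, of which those the text needs are given and 1 is not reported here. Predicted, clone, immunoglobulin segment and pseudogene names were left out of the middle group, which passed over 2 higher and 3 lower genes. Alternatives were other tests (DESeq2 1.42.0 and weighted limma-voom), other scaling (upper-quartile or RLE), other filters (none, or a mean of 1 CPM), 8 libraries in the fit, a replicate block, each library left out, and Model 2, HBG 3 and Control 4 left out together.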

Additional observations from a re-analysis of the deposited data

Results flagged for a closer look

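In groups of 4 libraries, a library was picked out when its gap to the nearest other library was a larger part of the group's range than Dixon's critical value at 95%. This happened in 23 of the 242 groups of values examined (9.5%), and 8 of the 23 belonged to HBG 1 and 5 to Model 2. Chance gives about 1 in 20 for independent, normally distributed values. CPM were not put on a log scale here and the groups share libraries, so that rate is only a rough guide. The values are given with no explanation.

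HBG 1 was above the other HBG libraries for Irf7 (107.6 CPM against 48.19 to 55.74), Ighg1 (218.7 against 0.943 to 14.0), Ltf (1992 against 53.3 to 327.6), Ctsk (76.64 against 31.66 to 37.52), Ccl7 (2.425 against 0.388 to 0.487) and Dbn1 (14.93 against 11.98 to 12.17). It was below them for Rpl10 (164.3 CPM against 257.9 to 274.3) and Loxl4 (3.592 against 3.826 to 3.839). HBG 3 was above the others for Rrm2 (14.32 CPM against 3.105 to 4.055) and for the erythroid score (1.179 against -0.614 to -0.519). It was below them for Fkbp10 (24.05 CPM against 26.45 to 26.93) and for the p53 score (-0.985 against 0.21 to 0.31). HBG 4 was above the others for Mrm1 (9.427 CPM against 7.088 to 7.461) and below them for Tap1 (69.87 against 86.94 to 88.98).

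Model 2 was above the other Model libraries for Ccl5 (43.42 CPM against 5.837 to 10.05), Csf3r (155.7 against 13.07 to 36.29), Rrm2 (7.119 against 2.401 to 3.077) and Tnf (0.9593 against 0.362 to 0.4568), and below them for Hsp90b1 (702.2 against 1043 to 1062). Model 4 was above the others for Acta2 (952.6 CPM against 407.7 to 481.2), and below them for the scores of basement membrane (-0.097 against 0.301 to 0.377) and of venous and inflamed endothelium (0.174 against 0.216 to 0.218). Model 1 was above the others for Loxl2 (85.25 CPM against 54.02 to 59.36). Loxl2 kept its separation between HBG and Model apart from this library, since the lowest Model value was 54.02 CPM and the highest HBG value 48.51 CPM.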

How the results depend on the processing

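The count of genes called was 0 under every setting run except DESeq2, which gave 4. Genes at an unadjusted p under 0.05 numbered 231 with 8 libraries in the fit, 772 with no filter, 2632 in limma-voom and 305 to 903 as single libraries were left out, highest without HBG 3 and next without Model 2 (867). With Model 2, HBG 3 and Control 4 left out together there were 841, and 0 called. Limma-voom gave its lowest weights to HBG 3 (0.231), Model 2 (0.33), HBG 1 (0.516) and Model 4 (0.533). Of the 8 libraries compared, Model 3 (2.955) and HBG 4 (2.02) weighed most.

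Labels number the libraries of each group 1 to 4. Deviations of same-numbered libraries correlated at 0.223, -0.195, -0.049 and 0.481, and HBG 3 was most like Model 2 (0.532), so not every library was most like its own number and the numbers were not taken as pairs. With the replicate block 0 genes were called, with 365 at an unadjusted p under 0.05.

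The log2 fold change turned sign for some named genes that never passed the test. In limma-voom it was 0.03 for Acta2, -0.194 for Ighg1, -0.022 for Isg15, -0.079 for Krt8 and 0.122 for Pecam1, and with the replicate block -0.066 for Krt8. As single libraries were left out it ran from -0.54 to 0.159 for Acta2, from -1.627 to 0.299 for Csf3r, from -0.763 to 0.013 for Cthrc1, from -0.52 to 1.17 for Fabp4, from -1.209 to 0.249 for Il1b, from -0.337 to 0.313 for Krt8, from -0.153 to 2.348 for Ltf, from -0.462 to 0.119 for Pecam1, from -0.328 to 0.091 for Postn, from -0.18 to 1.127 for Rrm2 and from -0.196 to 0.326 for Scgb1a1. The cause was not tested. DESeq2 put Fblim1 (-0.453) and H2ac18 (2.79) past the threshold. Medians of the collagen, crosslinking and type I interferon lists kept their sign in all 17 alternatives. This was not particular to them. Many other lists did so too, among them cardiac muscle, T and natural killer cells, club and secretory epithelium and mitochondrially encoded genes.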
